A study of Mus musculus with 3 samples.

Results

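Inhibitory receptors of T cells were examined in regulatory T cells (Tregs), Foxp3-expressing CD4 T cells known for holding other immune cells in check. The 10 genes were taken by symbol from the gene tables: Ctla4, Pdcd1, Lag3, Havcr2, Tigit, Cd96, Cd226, Vsir, Btla and Cd160. All 10 were found among the 55536 genes of the GENCODE M21 tables. Cd226 is known as an activating receptor and belongs here as the competitor of Tigit and Cd96. Polyadenylated RNA came from 1 biosample of 1 donor mouse aged 12 weeks, described in the labels as Tregs that had experienced inflammation and as derived from activated Tregs. The sources used here do not give the strain, the inflammatory treatment or the sorting gate. There was 1 group with 3 libraries, labelled technical replicates 1 to 3 of the same biological replicate, and no untreated group. The spread between libraries may therefore be technical, and it holds nothing on variation between mice.

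Inhibitory receptors are surface proteins that lower the response of a T cell when they meet a ligand on another cell. CTLA-4 competes with the costimulatory receptor CD28 for CD80 and CD86, and PD-1 answers to PD-L1 and PD-L2. TIGIT and CD96 share the ligand CD155 with the activating receptor CD226, BTLA and CD160 share the ligand HVEM, and LAG-3 binds major histocompatibility complex class II. On Tregs, CTLA-4 is known to remove CD80 and CD86 from antigen-presenting cells.

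Gene expected counts, which are reads shared out among genes by a model, summed to 35592206, 31611422 and 37728241 in libraries 1 to 3. Library 3 stood apart through 10 secretory genes of glands, which summed to 5.07, 11.7 and 58842 TPM (a level corrected for transcript length and scaled to a fixed total) in libraries 1 to 3. Scaled without those genes, TPM gave the same calls for neighbouring genes and gene pairs. Such scaling shifts all other genes of a library alike, so differences within a library could hardly change and only the range comparisons could. It does not test TPM compared between libraries. In library 3 the gland genes take up part of the fixed total, so the TPM of all other genes is lowered there. All 10 Treg markers, Ctla4 among them, and all 6 T cell markers listed were detected, that is, reached 1 TPM in every library. Foxp3 had 98.1, 98.4 and 96.5 TPM. The B cell list summed to 83.8, 84.8 and 80.0 TPM, the CD8 T cell list to 20.7, 27.6 and 19.5 TPM, and the natural killer (NK) cell list to 10.5, 15.4 and 9.90 TPM. The myeloid list reached 5.48, 2.53 and 6.33 TPM. In bulk RNA, fewer cells of a type and less RNA per cell cannot be told apart.

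All 10 receptor genes were detected, where 23.2% of all genes and 47.6% of protein-coding genes were. Their levels fell into 4 groups parted by gaps of more than 2 times in mean TPM. Ctla4, Pdcd1, Cd96 and Vsir averaged between 191 and 281 TPM, and Cd226, Tigit and Btla between 59.1 and 82.9 TPM. Cd160 averaged 18.8 TPM, and Lag3 and Havcr2 averaged 6.54 and 3.53 TPM. The highest mean, of Ctla4, was 79.4 times the lowest, of Havcr2. The median of the 10 means was 80.7 TPM, beside 31.4 TPM over the 10494 detected protein-coding genes. The 10 genes together gave 1212, 1087 and 1103 TPM in libraries 1 to 3, and the 4 highest genes made up 78.2%, 77.8% and 78.0% of that sum. Only 8.35% of protein-coding genes averaged above 100 TPM, as these 4 did.

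**Figure D1:**
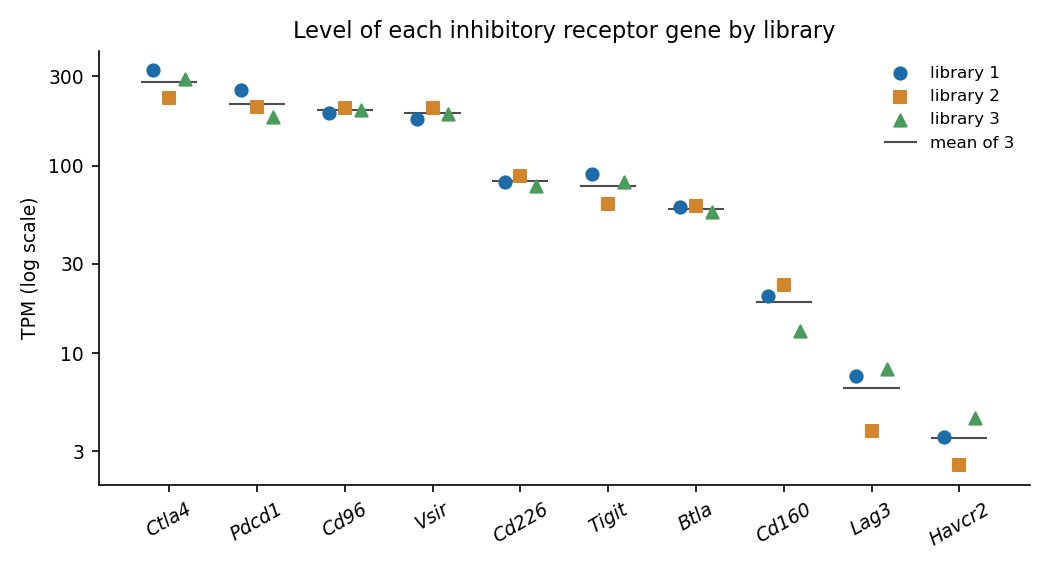
TPM of each of the 10 genes on a log axis, with a point for each of the 3 libraries and a line at their mean. Ctla4 is highest at a mean of 281 TPM and Havcr2 lowest at 3.53 TPM, and clear gaps lie below Vsir, Btla and Cd160.

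In the order of mean TPM, 4 of the 9 neighbouring pairs had ranges over the 3 libraries that did not overlap. These were Vsir above Cd226, Tigit above Btla, Btla above Cd160 and Cd160 above Lag3. Ctla4, Pdcd1, Cd96 and Vsir overlapped from neighbour to neighbour, as did Cd226 with Tigit and Lag3 with Havcr2. The order of those neighbours was therefore not resolved. Within the top group, Ctla4, at 230 TPM or more, did lie above Cd96 and Vsir, which reached at most 204 and 205 TPM. The gap between Tigit and Btla was narrow, with 62.8 TPM as the lowest Tigit value and 60.9 TPM as the highest Btla value. The order also depended on the counting: M4 counts per kilobase put Cd96 first, ahead of Tigit, Pdcd1 and Ctla4.

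Ctla4, Pdcd1 and Btla encode inhibitory relatives of CD28. Ctla4 (ENSMUSG00000026011.13, mm10 chr1:60887000-60915832, plus strand) had 323, 230 and 289 TPM in libraries 1 to 3, a mean of 281 ± 46.9 TPM (SD, n = 3). Library 2 was the lowest of the 3. Its mean stood at percentile 97.8 of protein-coding genes. The span of Ctla4 on mm10 also holds a processed pseudogene on the same strand, Rpl18-ps1, at 9.11 TPM.

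Ctla4 transcripts differ in exon 3, and its sequence is shown because it carries the membrane anchor. Ctla4-201 encodes the membrane receptor of 223 residues. Ctla4-202 leaves out exon 3, a block of 110 bases, and its reading frame of 174 residues holds no hydrophobic stretch (a window of 19 residues with a mean Kyte-Doolittle value of at least 1.6, outside the first 35 residues). A form of CTLA-4 without the membrane exon is known as soluble CTLA-4. Capitals mark the codons of the hydrophobic stretch in exon 3 (chr1:60913219-60913328, plus strand), and, in the 2 junctions, the bases that follow the end of exon 2. The sequences are from the GENCODE M21 transcripts.
Ctla4 exon 3: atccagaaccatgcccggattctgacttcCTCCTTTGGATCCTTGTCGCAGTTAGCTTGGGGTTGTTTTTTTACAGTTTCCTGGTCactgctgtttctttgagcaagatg
Ctla4-201, exon 2 to exon 3: agatttatgtcattgATCCAGAACCATGCC
Ctla4-202, exon 2 to exon 4: agatttatgtcattgCTAAAGAAAAGAAGT

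Membrane Ctla4-201 took 99.6%, 97.8% and 98.8% of the TPM of Ctla4 in libraries 1 to 3. Ctla4-202, whose exon 2 runs straight into exon 4, took 0.15%, 1.38% and 0.79%, from 6.07, 34.7 and 31.0 model-assigned reads. Ctla4-202 was thus assigned below 2% of Ctla4 TPM in every library, highest in library 2 and lowest in library 1. These shares are model estimates, and no interval is given for them here. The 2 transcripts also differ in the annotated length after the stop codon, 1115 bases in Ctla4-201 and 89 bases in Ctla4-202. The split therefore does not rest on exon 3 alone.

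Pdcd1 (ENSMUSG00000026285.7, chr1:94038305-94052553, minus strand) encodes PD-1. It had 255, 206 and 183 TPM, a mean of 215 ± 37.1 TPM (SD, n = 3), highest in library 1 and lowest in library 3. Pdcd1 has 1 annotated transcript, Pdcd1-201, with a membrane stretch. Pdcd1 was 0.76 times the level of Ctla4 over mean TPM, lower in 3 of 3 libraries, but the ranges overlapped (Pdcd1 over Ctla4, -0.39 ± 0.25 in log2(TPM + 1), exact sign-flip permutation p = 0.25, n = 3). With 3 libraries this two-sided test cannot go below 0.25, and over the 8 gene pairs compared its adjusted p was 0.29 for every pair but Tigit over Cd226.

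Ctla4 exceeded Cd28, its costimulatory counterpart and neighbour on chromosome 1 at a distance of 114 kb. Cd28 had 153, 150 and 147 TPM in libraries 1 to 3. Ctla4 stood at 2.10, 1.53 and 1.97 times Cd28 in the 3 libraries, and the ranges did not overlap. The difference was 0.89 ± 0.24 on the log2(TPM + 1) scale (SD, n = 3, exact sign-flip permutation p = 0.25). It rests on the correction for length: in depth-scaled counts without that correction, Ctla4 over Cd28 was -0.24 on the log2 scale.

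Btla (ENSMUSG00000052013.15, chr16:45224315-45257670, plus strand) encodes an Ig-family receptor for HVEM. It had 60.0, 60.9 and 56.5 TPM, a mean of 59.1 ± 2.34 TPM (SD, n = 3). By TPM library 3 was lowest, although in TMM-scaled counts library 1 was lowest. Gland genes held 58842 TPM of the fixed total in library 3, which lowers the TPM of other genes there. The library 3 TPM of Btla is therefore not directly comparable with its TPM in the other libraries. Its membrane forms differ at the start of exon 4, and the junctions are shown because 3 bases, in capitals, set the longer reading frame of 306 residues apart from the shorter one of 305.
Btla-201: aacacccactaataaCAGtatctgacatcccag
Btla-202: aacacccactaataatatctgacatcccag

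The shorter form, Btla-202, took 81.0%, 88.7% and 84.2% of Btla TPM in libraries 1 to 3. Btla-201, with the extra 3 bases, took 18.1%, 9.49% and 13.8%, so it was the minor form in all 3 libraries. The 2 transcripts also differ in the annotated length after the stop codon, 661 bases in Btla-201 and 2295 bases in Btla-202, so the split does not rest on the 3 bases alone.

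Tigit, Cd96 and Cd226 bind CD155 and related nectins. Cd96 (ENSMUSG00000022657.9, chr16:46035657-46120251, minus strand) had 192, 204 and 199 TPM, a mean of 199 ± 6.35 TPM (SD, n = 3). Tigit (ENSMUSG00000071552.5, chr16:43648867-43664146, minus strand) had 91.0, 62.8 and 81.9 TPM, a mean of 78.6 ± 14.4 TPM, lowest in library 2. The activating Cd226 (ENSMUSG00000034028.16, chr18:89176967-89272229, plus strand) had 81.7, 88.5 and 78.4 TPM, a mean of 82.9 ± 5.17 TPM, and its range overlapped that of Tigit. Tigit, Btla and Cd96 lie on 1 stretch of chromosome 16, with gaps of 1.56 Mb between Tigit and Btla and 0.778 Mb between Btla and Cd96.

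Tigit did not differ from Cd226 beyond the spread of the libraries at the gene level. Tigit was 1.11, 0.71 and 1.04 times Cd226 in libraries 1 to 3, and the difference was -0.09 ± 0.35 on the log2(TPM + 1) scale (SD, n = 3, exact sign-flip permutation p = 1). Cd96 was 2.40 times Cd226 and higher in 3 of 3 libraries without overlap (1.25 ± 0.07 on the same scale, n = 3, exact sign-flip permutation p = 0.25). Tigit was 0.40 times Cd96, lower in 3 of 3 libraries without overlap (-1.34 ± 0.32, n = 3, exact sign-flip permutation p = 0.25).

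The Cd226 gene level hid a mixture of transcripts, unlike Tigit and Cd96, which have 1 annotated transcript each. Full-length reading frames of 333 residues, mostly in Cd226-207, took 28.4%, 28.7% and 26.4% of Cd226 TPM in libraries 1 to 3. By reads the same transcripts took 68.7%, 70.9% and 67.6% of Cd226 counts, as TPM divides reads by length and Cd226-207 has 4494 bases. Cd226-209, a partial model of 408 bases with an incomplete coding region, took 23.1 ± 0.447% of TPM (SD, n = 3) from between 143 and 153 reads per library. Cd226-208, also incomplete, took 9.99 ± 3.73%. Cd226-205, with a shorter membrane reading frame of 129 residues, took 18.7 ± 4.27%, the decay-annotated Cd226-210 and Cd226-203 took 7.55 ± 1.56% and 6.01 ± 0.720%, and the retained-intron Cd226-204 took 6.69 ± 2.08%. Over all 10 transcripts, 46.5% of TPM was in complete reading frames with a membrane stretch. A further 33.3% was in models with incomplete coding regions, which were not classed by stretch. By reads, the membrane transcripts averaged 2378, the incomplete models 224, the decay-annotated 440 and the noncoding 65.4 per library.

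With transcripts of full-length reading frame only, a comparison chosen after the gene values were seen, Cd226 had 23.2, 25.4 and 20.7 TPM. Tigit was then 3.93, 2.47 and 3.96 times Cd226 in libraries 1 to 3, with a difference of 1.71 ± 0.38 on the log2(TPM + 1) scale (SD, n = 3) and no overlap. Cd96 over Cd226 widened to 3.06 ± 0.14. Thus the order of Tigit and Cd226 depended on whether short and partial Cd226 transcripts were counted, while Cd96 was above Cd226 both ways.

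**Figure D2:**
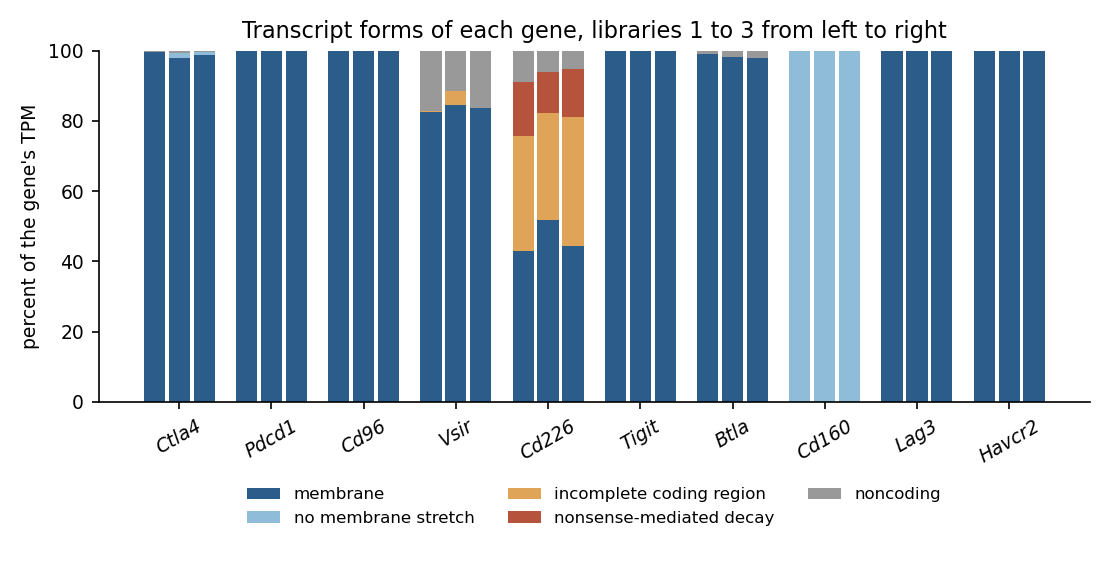
Percent of the TPM of each gene in transcripts of each annotated form, with 3 bars per gene for libraries 1 to 3. Most genes are a single block, whereas Cd226 divides into 4 forms with 46.5% membrane on average, and Cd160 has no internal membrane stretch.

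Vsir, Havcr2, Lag3 and Cd160 complete the set. Vsir (ENSMUSG00000020101.14, chr10:60346851-60372684, plus strand) encodes VISTA, a B7-related protein of myeloid cells and T cells. It had 178, 205 and 189 TPM, a mean of 191 ± 13.3 TPM (SD, n = 3), highest in library 2. The gene lies wholly inside Cdh23 on the other strand, which had 11.3 TPM, and the sources used here do not say whether counting used strand. The myeloid list, in which Cd68 at 1.64 TPM and Lyz2 at 1.36 TPM were highest and Cd14 and Fcgr1 were at 0, was detected for 1 of 12 genes, and the dendritic cell list for 1 of 6, Zbtb46 at 4.21 TPM, ahead of Xcr1 at 0.27 TPM. The dendritic cell list summed to 7.93, 4.38 and 2.64 TPM, and the part of either cell type in the Vsir level was not tested.

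Vsir-202, with a reading frame of 227 residues, took 51.6%, 49.4% and 52.0% of Vsir TPM. Vsir-201, which encodes the full 309 residues, took 30.8%, 35.2% and 31.8% of TPM but 66.6%, 70.8% and 67.3% of the reads. The retained-intron Vsir-205 took 14.4 ± 2.99% of TPM (SD, n = 3). At full length only, Vsir had 55.0, 72.1 and 60.2 TPM and then stood below Tigit in the order of means, with ranges that overlapped.

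**Figure D3:**
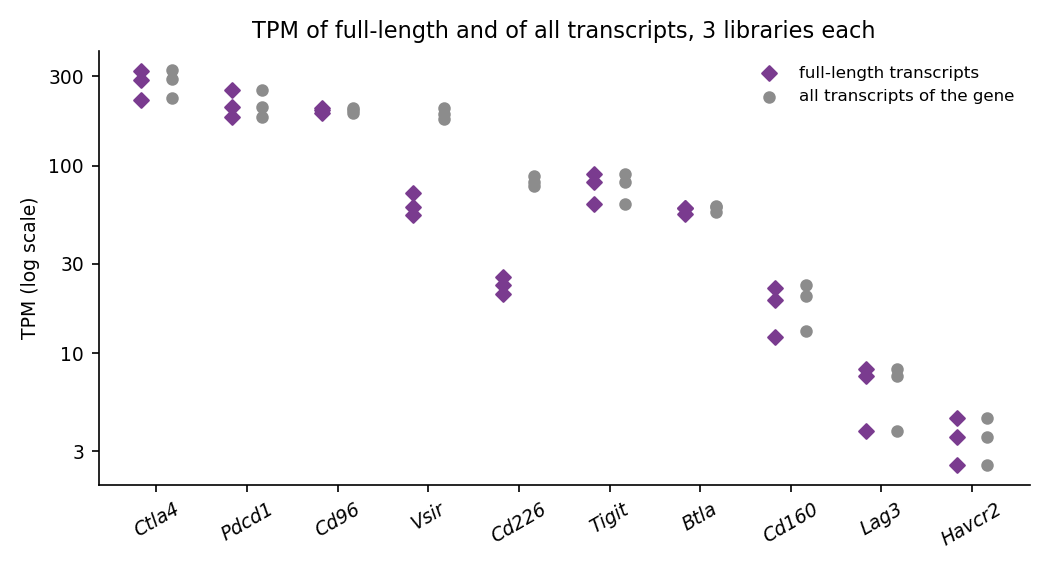
TPM on a log axis for transcripts of full-length reading frame (diamonds) and for all transcripts of the gene (circles), 3 libraries each. The diamonds lie well below the circles for Vsir and Cd226 only, at 32.6% and 27.8% of the gene's mean TPM, and at 95.2% or more for the other 8 genes.

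Cd160 (ENSMUSG00000038304.14, chr3:96798763-96829351, minus strand) encodes an HVEM receptor held by a lipid (GPI) anchor. It had 20.1, 23.2 and 13.1 TPM, a mean of 18.8 ± 5.16 TPM (SD, n = 3), lowest in library 3. No window of its reading frame of 185 residues passed the limit for a membrane stretch, and its most hydrophobic window ended 3 residues before the C-terminus. Cd160-201 took 80.5%, 79.7% and 88.9% of TPM, and Cd160-202, with the same reading frame and a longer end after the stop codon (1840 against 448 bases), took 15.6%, 16.6% and 4.30%. Library 3 was low in the gene and in the share of the longer transcript.

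Cells of other types are known to carry CD160, and their markers were at these levels. The NK cell list was detected for 2 of 8 genes, led by Prf1 at 7.83 TPM and Klrb1c at 2.08 TPM, with Klre1 and Klra8 at 0 counts in all 3 libraries. The CD8 T cell list was detected for 1 of 5, Cd8b1 at 19.2 TPM, with Cd8a at 1.74 TPM. The gamma delta T cell list summed to 9.21, 13.9 and 14.1 TPM, led by Tcrg-C1 at 6.62 TPM and Tcrg-C2 at 3.00 TPM. By TPM, Cd160, the CD8 list and the NK list all were highest in library 2 and lowest in library 3. In libraries 1 and 3 the CD8 list had 20.7 and 19.5 TPM, and the NK list 10.5 and 9.90 TPM. Gland genes lower the TPM of other genes in library 3, so the order of these lists between libraries 1 and 3 was not resolved. The part of those cells in the Cd160 level was not tested.

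Btla exceeded Cd160, with 3.14 times its mean TPM (1.64 ± 0.35 on the log2(TPM + 1) scale, higher in 3 of 3 libraries without overlap, n = 3, exact sign-flip permutation p = 0.25). Their shared ligand HVEM, encoded by Tnfrsf14, had 8.63, 6.54 and 7.36 TPM and lay far below Btla (-2.83 ± 0.19 on the same scale, lower in 3 of 3 libraries, n = 3, exact sign-flip permutation p = 0.25). Btla is also known from B cells, whose list was detected for 6 of 7 genes, led by Cd79b at 30.4 TPM and Cd79a at 16.7 TPM. The part of B cells in the Btla level was not tested.

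Lag3 and Havcr2, which mark exhausted and effector T cells, were lowest. Lag3 (ENSMUSG00000030124.2, chr6:124904361-124911705, minus strand) had 7.55, 3.83 and 8.23 TPM, a mean of 6.54 ± 2.37 TPM (SD, n = 3), from 325, 145 and 387 reads. Havcr2 (ENSMUSG00000020399.14, chr11:46454935-46481255, plus strand), which encodes TIM-3, had 3.56, 2.53 and 4.51 TPM, a mean of 3.53 ± 0.990 TPM, from 210, 131 and 290 reads. Both were lowest in library 2 and highest in library 3, as was the summed myeloid list, and the part of myeloid cells in Havcr2 was not tested.

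Lag3 lies 16.1 kb from Cd4 with no protein-coding gene between them, and both proteins bind class II molecules. Their levels were far apart: Lag3 was 0.0172 times Cd4, which had 371, 391 and 377 TPM (-5.71 ± 0.55 in log2(TPM + 1), lower in 3 of 3 libraries, n = 3, exact sign-flip permutation p = 0.25). All Lag3 TPM went to Lag3-201 and all Havcr2 TPM to Havcr2-201, both with a membrane stretch, in the authors' main estimate. Their posterior mean shares placed 4.11%, 9.74% and 6.61% of Lag3 in libraries 1 to 3 on the noncoding Lag3-202. They placed between 11.8% and 17.2% of Havcr2 on Havcr2-202, a membrane form that lacks 147 coding bases, so at 131 to 387 reads the splits of both genes depended on the estimate.

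Many of these receptors signal or traffic through tyrosines in the part of the protein that follows the membrane stretch. The motifs found are shown, as DNA with the tyrosine codon in capitals, because the tails differ in which of them they hold. An ITIM (immunoreceptor tyrosine-based inhibitory motif) was taken as serine, isoleucine, valine or leucine, any residue, tyrosine, any pair of residues, then isoleucine, leucine or valine. An ITSM (switch motif) was threonine, any residue, tyrosine, any pair of residues, then valine or isoleucine. The third motif was tyrosine, any pair of residues, then methionine, and the last was tyrosine, any residue, then asparagine, known as a binding site of the adaptor GRB2. The leading membrane transcript of 9 members was read, on the coding strand.
Ctla4 tyrosine-methionine motif, residue 201: TATgtgaaaatg
Pdcd1 ITIM, residue 225: gtggccTATgaggagctg
Pdcd1 ITSM, residue 248: acagaaTATgccaccatt
Btla ITIM, residue 273: attgttTATgcttctttg
Btla ITSM, residue 298: acagaaTATgcatccatt
Tigit ITIM, residue 228: ctgagcTACagaagccta
Cd96 ITIM, residue 583: atcaagTACacgtatatt
Btla tyrosine-asparagine motif, residue 244: TATgataat
Tigit tyrosine-asparagine motif, residue 222: TACtttaat
Cd96 tyrosine-asparagine motif, residue 563: TATcaaaat
Havcr2 tyrosine-asparagine motif, residue 274: TACgtcaac

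Of the 9 tails, 4 held an ITIM, those of Pdcd1, Btla, Tigit and Cd96. An ITSM occurred in 2, those of Pdcd1 and Btla, and the methionine motif in Ctla4 alone. The asparagine motif occurred in 5, those of Btla, Tigit, Cd96, Havcr2 and Cd226 (residue 319, not shown). Among 2203 protein-coding genes whose tail after the most hydrophobic stretch was of similar length (42 to 103 residues), 39.3% held an ITIM, 3.00% an ITSM, 5.54% the methionine motif and 7.67% the asparagine motif. The ITIM letters were common in that set. It was not limited to proteins with a single membrane stretch or to tails inside the cell. Its shares are therefore no background for receptor tails alone. The Lag3 tail had no tyrosine, and those of Havcr2, Vsir and Cd226 had 6, 3 and 3. None of the 3 in Vsir lay within these motifs, and Havcr2 and Cd226 held the asparagine motif only.

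All 10 genes differed between the 3 libraries by more than counting noise in a chi-square test of rounded expected counts against Poisson noise (Benjamini-Hochberg adjusted p below 0.05 over 18253 genes). That share is not particular to them, since the test called 77.0% of all genes, 84.3% of those averaging 1000 counts or more and 78.8% of those averaging 100 to 1000. The ratio of the highest to the lowest library, in counts scaled by TMM (edgeR's trimmed-mean factors), was at least 1.25 for 6 of 10 members, where 61.5% of all genes reached it. Among the 7 members with a mean count of at least 1000, 3 reached it, where 21.5% of genes in that class did, and all 3 members with lower counts did, where 68.6% did. The test compares libraries and no conditions.

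Differences between libraries were largest for the least abundant of the 10 genes. Among all genes the median ratio was also larger at lower counts. It was 1.38 at mean counts of 100 to 1000 and 1.14 at 1000 or more. The ratio was 2.31 for Lag3, 1.92 for Havcr2 and 1.83 for Cd160, with adjusted chi-square p of 7.62e-17, 4.83e-09 and 1.54e-19. It was 1.44 for Tigit and 1.41 for Ctla4, with 1.29 for Pdcd1, 1.24 for Vsir, 1.16 for Cd226 and 1.12 for Cd96. Btla, at 1.06, was called only narrowly (adjusted chi-square p = 0.042), and was not called when genes with a mean count under 50 were left out (adjusted p = 0.087). Its call is the weakest of the 10.

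The direction of these differences, in scaled counts, was mixed. Ctla4, Tigit, Lag3 and Havcr2 were lowest in library 2 (4 of 10 members, where 31.1% of all genes were called and lowest there). Cd96, Vsir and Btla were lowest in library 1 (3 members, 24.2% of all genes), and Pdcd1, Cd226 and Cd160 were lowest in library 3 (3 members, 21.4%). The highest library was library 2 for 4 members (28.1% of all genes were called and highest there), library 1 for 3 (25.7%) and library 3 for 3 (23.2%). Without library 2, 6 of the 10 members were called, where 48.8% of all genes were. Without library 1, 9 members were called (57.8% of all genes), and without library 3, the library with gland transcripts, all 10 were (60.4%).

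The whole-number M4 counts, with totals of 9718021, 8945992 and 9904722, showed fewer differences. They called 4 of 10 members, Tigit, Cd160, Lag3 and Havcr2, where they called 51.9% of 12056 genes. Lag3 had 283, 133 and 344 M4 counts, Havcr2 68, 45 and 96, Tigit 951, 690 and 920, and Cd160 253, 252 and 209. Each kept its lowest library of the M21 table. Tigit had an adjusted chi-square p of 3.6e-05 there, Cd160 of 0.016 and Havcr2 of 0.0024.

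Ctla4 had 1419, 1281 and 1407 M4 counts, and after scaling its ratio between libraries was 1.02 (adjusted chi-square p = 0.85), beside 1.41 in the M21 table. Ctla4 was also the member whose count depended most on the table. Its M21 count was 8.38 times its M4 count on average, beside a median of 3.47 over 1274 genes with M21 counts of 5000 to 15000, whereas Lag3 had 1.12 times, beside a median of 1.88 over 3540 genes with counts of 100 to 1000. Pdcd1, Cd96, Vsir, Cd226 and Btla were also not called in the M4 counts, with ratios between libraries of 1.08, 1.06, 1.08, 1.08 and 1.05 there. The low Ctla4 value in library 2 thus rests on the M21 table alone, while the low values of Tigit, Lag3 and Havcr2 there hold in both tables.

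**Figure D4:**
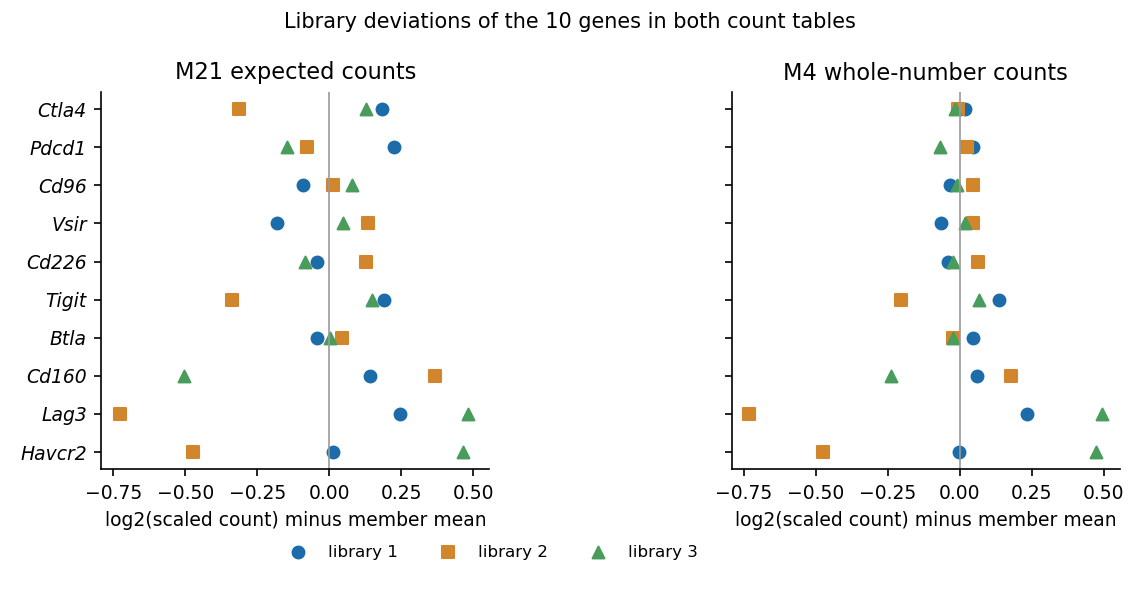
Deviation of each library from the mean of the gene, as log2 of the TMM-scaled count, for the M21 expected counts on the left and the M4 counts on the right. Library 2 is the lowest for Tigit, Lag3 and Havcr2 in both panels, whereas the ratio of the highest to the lowest library for Ctla4 is 1.41 in M21 and 1.02 in M4.

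The ligand list, which also holds ligands of other receptors, such as Cd48 for 2B4, was detected for 13 of 20 genes. The chi-square test called 14 of the 18 tested, where it called 77.0% of all genes. The highest were Selplg at 746 ± 52.8 TPM (PSGL-1, known to bind VISTA in human cells), Cd48 at 380 ± 9.20 TPM (the ligand of 2B4), Lgals9 at 212 ± 15.5 TPM (galectin-9, reported to bind TIM-3) and Hmgb1 at 173 ± 6.14 TPM (all SD, n = 3). Lowest were Fgl1, a LAG-3 ligand, at 0.057 TPM, and Igsf11, a VISTA ligand in human, with no counts in any library. The RNA thus held transcripts for some ligands alongside the receptors.

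Some direct partners of the better-known receptors, chosen after their values were seen, were lower than the receptors themselves. Other listed ligands were higher: Lgals9 had 212 TPM against 3.53 TPM for Havcr2, and Selplg 746 TPM against 191 TPM for Vsir. Cd274, which encodes PD-L1, had 45.6 ± 3.29 TPM and Pdcd1lg2, which encodes PD-L2, 21.2 ± 3.16 TPM, against 215 ± 37.1 TPM for Pdcd1. Cd86 had 39.1 ± 1.31 TPM and Cd80 2.99 ± 1.03 TPM, against 281 ± 46.9 TPM for Ctla4. Pvr, which encodes CD155, had 24.0 ± 4.25 TPM, below the gene levels of Tigit, Cd96 and Cd226 (SD, n = 3 for each value).

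Signalling and traffic partners were broadly expressed, with 19 of 20 detected. Of the 20, 18 were called different between libraries, where 77.0% of all genes were. Lck and Fyn, kinases that phosphorylate receptor tails, had 1249 ± 50.2 and 460 ± 10.8 TPM. Arf1 and Ap2m1, which serve vesicle transport and the clathrin adaptor that carries CTLA-4 inward, had 386 ± 25.7 and 341 ± 20.9 TPM. The lowest were Lrba, which protects CTLA-4 from breakdown in lysosomes, at 17.1 ± 4.54 TPM and Pld1, which takes part in CTLA-4 export, at 1.22 ± 0.792 TPM (SD, n = 3 for each). Of the phosphatases recruited by ITIM and ITSM, named after their values were seen, Ptpn6 (SHP-1) had 277 ± 28.8 TPM and Ptpn11 (SHP-2) 23.8 ± 1.88 TPM.

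Related costimulatory and inhibitory receptors were detected for 15 of 20 genes, and all 17 tested were called, where 77.0% of all genes were. Cd6 and Cd5, which damp signals of the T cell receptor, had 531 ± 21.9 and 504 ± 24.5 TPM, Slamf6, a receptor of the SLAM family, had 413 ± 55.4 TPM and Cd4 380 ± 10.3 TPM. Timd2 and Timd4, relatives of Havcr2, were lowest at 0.113 and 0.077 TPM (SD, n = 3). Icos, the costimulatory gene 62.1 kb from Ctla4 and named after its values were seen, had 369, 186 and 281 TPM. It was lowest in library 2, as Ctla4 was in the M21 table but not in the M4 counts. M4 counts of Icos are not given here.

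Transcription factors tied to inhibitory receptor genes were detected for 17 of 18 members, and 16 of 18 were called, where 77.0% of all genes were. Of the 18 tested, 10 were called and highest in library 3 in scaled counts (23.2% of all genes tested were called and highest there). In the same counts, 10 of the 18 were called and lowest in library 2 (31.1% of all genes tested). Tcf7 had 451 ± 56.6 TPM, Batf 251 ± 56.7 TPM, and Nfatc1 237 ± 4.35 TPM (SD, n = 3 for each). Tox had 114, 91.6 and 96.0 TPM. Lowest were Nr4a2 at 6.13 ± 1.98 TPM and Eomes with 0.72, 0.21 and 1.21 TPM in libraries 1 to 3. Tcf7 and Eomes are known from memory-like and effector T cells, Tox and the NR4A factors from exhausted T cells, and Batf from effector Tregs.

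**Figure D5:**
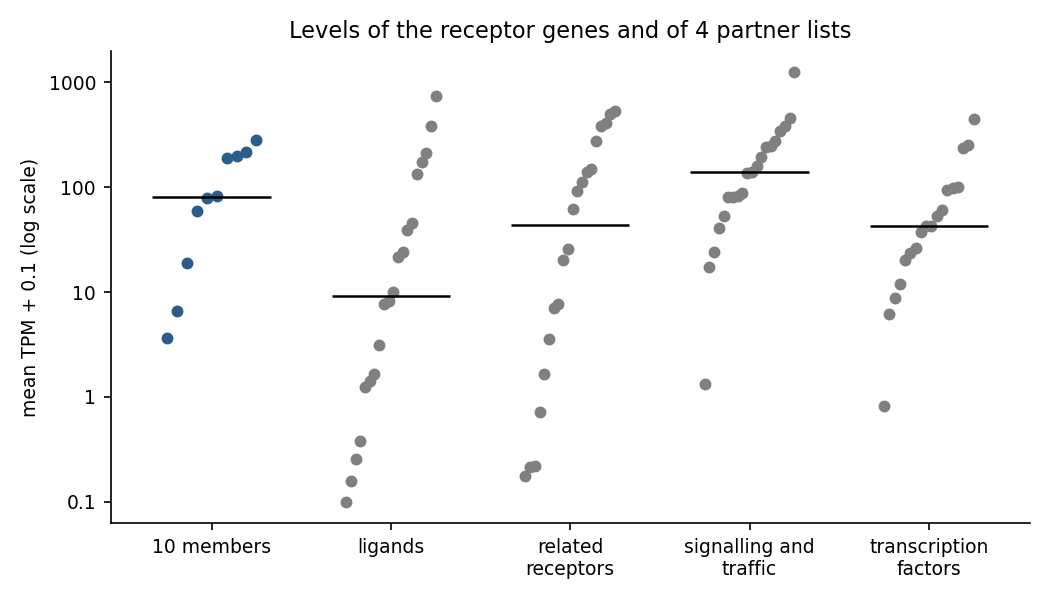
Mean TPM plus 0.1 over the 3 libraries, on a log axis, for the 10 receptor genes and for each gene of the 4 partner lists, with a line at each median. The receptor genes, with a median of 80.7 TPM, lie between the signalling and traffic list at 139 TPM and the related receptors at 43.6 TPM, and the ligands spread most widely, with a median of 8.96 TPM.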

How the data were processed

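The authors deposited, per library, gene and transcript tables quantified on mm10 with GENCODE M21 and a gene table counted with GENCODE M4, per the file headers and accompanying notes. The deposited M21 tables hold expected counts, TPM and FPKM and bounds around posterior mean TPM (of unstated level), and those for transcripts give each one's percent of its gene, all computed by the authors. The M4 tables hold whole-number counts by the authors. FPKM was not used in tests. TPM exceeded the upper bound in 18 of 30 member and library values, so bounds were used only as an alternative. The program, the strand setting and the handling of duplicates are not given in the sources used here. Rows for transfer RNAs, spike-ins and phiX, 0.170%, 0.170% and 0.218% of counts in libraries 1 to 3, were left out of library sizes and tests.

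The members and lists were chosen with earlier results of these data known. Expected counts were rounded and scaled by TMM (edgeR 4.0.16, R 4.3.3). A chi-square test against Poisson noise covered every gene averaging 10 or more counts, with Benjamini-Hochberg adjustment at 0.05, and was tested on simulated data. There it recovered changed genes less often below a mean count of 100, and the limit for passing was restricted to genes at or above that count, which includes all members, after this was seen. With 1 group, no quasi-likelihood contrast was possible. Gene pairs used log2(TPM + 1) and an exact sign-flip permutation test, two-sided, over libraries. A pair was apart where its difference had 1 sign in all 3 libraries and the TPM ranges did not overlap. A full-length transcript has a complete reading frame within 1 residue of the longest. Reading frames were translated with Biopython 1.88 in Python 3.11.15 (numpy 2.4.6, pandas 2.3.3, scipy 1.17.1, matplotlib 3.10.9). Named genes are all members, transcripts with a mean share of at least 5%, the genes of the 8 pairs, the 4 highest and 2 lowest of each partner list and the 2 highest of each marker list of another cell type. Alternatives were DESeq2 1.42.0 size factors, total counts, other filters, posterior means, M4 counts, no length correction, another pseudocount and leaving out each library.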

Additional observations from a re-analysis of the deposited data

How the results depend on the processing

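Of 234 alternative values, 214 were classed as keeping their direction and their side of the threshold or criterion, among them 63 of 70 member ratios and 72 of 80 pair differences. The 214 include counts that shifted, such as members detected, from 10 to 8 at a TPM of at least 5. Some alternatives could hardly move a value. The authors' bounds leave pair differences as they are, and scaling without gland genes shifts a library alike. The 214 therefore do not measure robustness. Members called different between libraries numbered 4 in the M4 counts, and between 6 and 10 when a library was left out, with 6 without library 2. The share of all genes called was then 57.8%, 48.8% and 60.4% without libraries 1, 2 and 3, beside 77.0% with all 3. Neighbours whose ranges did not overlap numbered 7 in M4 counts per kilobase and between 5 and 8 when a library was left out, since ranges over fewer libraries are narrower. Ctla4 over Cd28 was -0.24 in depth-scaled counts without length. Pdcd1 over Ctla4 was 0.12 in M4 counts per kilobase, and between -0.50 and -0.25 when a library was left out, with no overlap at -0.41 without library 1 and -0.50 without library 2. Tigit over Cd226 was 0.82 in M4 counts per kilobase, 1.71 in full-length transcripts only (added after seeing the data), -1.06 without length, and between -0.21 and 0.11 when a library was left out, with 0.11 without library 2. The log2 ratio of library 2 to library 1 for Btla turned to -0.071 in the M4 counts. The cause of the differences between the tables was not tested. Lag3 and Havcr2, at 131 to 387 reads, and their transcript shares are limited by depth. No paired analysis was possible because the labels give only 1 group, so no groups share replicate numbers.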
